A study of Mus musculus with 48 samples.

Results

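Wild-type mouse livers taken 10 days after an injection of AAV8.TBG.Cre were compared with wild-type livers taken 4 days after it. The libraries titled WT were used, 12 of the 48 in the series. They came from 6 of the 24 mice, 3 for each day, and each mouse gave 1 library of ribosome-protected fragments (RPFs) and 1 of cytoplasmic RNA (Totals) from the same lysate. The mice were males of 2 to 4 months and at least 20 g on a mixed C57BL/6 background, with food always available and a 12-h light cycle. AAV8.TBG.Cre carries Cre behind the TBG promoter, which is active in hepatocytes. WT mice have no floxed allele for Cre to recombine, yet mice of both days received the virus (2e+11 genome copies, which the labels give both per mouse and per ml), and no uninjected liver was compared. The days were injected on different dates so that all mice were collected at one time. Day after injection therefore cannot be told apart from anything else that differed between the mice injected on the separate dates, and the clock time of collection was not given. The remaining mice were Ctnnb1ex3/+ (B), R26-LSL-MYC (M) or carried both alleles (BM), with 6 mice per genotype and the same virus. They were used here to ask whether the day difference of WT livers was also seen in them and, in an alternative fit, to estimate the spread between mice.

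The liver changes its transcripts with feeding, with the time of day and with injury. After a meal, insulin raises the enzymes of glycolysis, fatty acid synthesis and cholesterol synthesis, whereas in fasting glucagon and glucocorticoids raise the enzymes that release glucose. Inflammatory cytokines, interleukin-6 above all, make hepatocytes secrete acute phase proteins. Infection with a virus can raise interferons, which switch on a large set of antiviral genes. The hepatocyte clock is a loop in which BMAL1 and CLOCK activate the *Per*, *Cry* and *Nr1d* genes through E-boxes, and the products of those genes repress the loop in turn. RPF counts report how many ribosomes sat on the coding sequence of an mRNA, and translational efficiency (TE) is the RPF change that the RNA change does not account for.

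The 6 RPF libraries held 9742197 to 12739173 counts and the 6 RNA libraries 4645204 to 5908324. Levels are given as CPM, counts scaled to a common library total with trimmed-mean factors within a library type, which are not corrected for length, so they were compared between mice and not between genes. Changes are log2 values of day 10 minus day 4 with their SE, so that a negative value is lower at day 10. A gene was called at an adjusted p under 0.1 in the quasi-likelihood test of edgeR, with the Benjamini-Hochberg method over all genes tested. The label of the tissue was checked against marker lists. Summed hepatocyte markers ran from 116000 to 120000 RNA CPM at day 4 and from 116000 to 117000 at day 10, with no call among 10 members. The 15 T and NK cell markers summed to 3.12 to 5.02 RNA CPM over the 6 mice, none of them was high enough in RNA to be tested, and 5 of the 9 pancreatic acinar markers in the tables had 0 RNA counts in all 6 libraries. No cholangiocyte, erythroid, B cell or endothelial marker was called. Summed cholangiocyte markers did not overlap between the days in RPFs, with 81.3, 91.5 and 123 CPM at day 4 and 42, 78.2 and 54.9 at day 10, and all 5 tested were below 0 (median -0.42). Their RNA sums overlapped (89.7 to 159 against 74.2 to 124), with 5 of 6 below 0 (median -0.36). Mouse 2 of day 4 stood apart from the other mice of its day in genes of the acute phase, where it lay closest to the mice of day 10, so counts without it are given with those genes. In summed RNA of the feeding lists that mouse instead lay farthest from the mice of day 10. The day 4 sums were 18300, 12300 and 19600 CPM for fed and lipogenic genes, 5080, 6710 and 5370 for fasted and 4210, 3280 and 3940 for cholesterol synthesis genes.

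Between day 4 and day 10, 120 genes rose in RNA (1.09% of 11026 tested) and 136 fell (1.23%). In RPFs, 236 genes rose (2.17% of 10899) and 248 fell (2.28%). The median log2 change over all genes tested was -0.00739 in RNA and 0.006 in RPFs. Of the genes called in RNA, 64 of those that rose (53.3%) and 98 of those that fell (72.1%) were also called in RPFs in the same direction. These made up 27.1% of the RPF calls that rose and 39.5% of those that fell, and no gene was called higher in one library type and lower in the other. Across the 10187 genes tested in both, the RNA and RPF changes had a Pearson r of 0.631, a description across genes from the same mice. At least a 2-fold change was seen in 27 RNA calls that rose and 63 that fell, and in 37 and 88 RPF calls. The mice of the days did not overlap in 98% of the RNA calls and 98.8% of the RPF calls. That share was not counted for genes that were not called. Among called genes with a mean of at least 5 CPM and no overlap of the days, the 10 that fell furthest in RNA were acute phase genes, *Scara5*, *Cdkn1a* and members of the fasted list, and in RPFs acute phase genes, *Mt2*, *Hspa1a*, *Hspa1b*, *Scara5* and *Cdkn1a*. Those that rose furthest in RNA included *Nr1d1*, *Onecut1*, *Angptl8*, *Fam13a* and *Clec2h*. Counts of calls in RNA moved by more than 1.5 times when 1 mouse was left out, to between 60 (without mouse 1 or 3 of day 4) and 245 (without mouse 2 of day 10) genes that rose and between 79 (without mouse 1 of day 4) and 186 that fell, with 82 and 83 that fell without mouse 3 of day 4 or of day 10. In RPFs they ran from 102 (without mouse 1 of day 4) to 345 genes that rose and from 104 (without mouse 1 of day 4) to 353 that fell, with 151 and 140 that fell without mouse 3 of day 4 or of day 10. In 1 fit over all 24 mice of the series, which takes the spread from every genotype, 30 genes rose and 54 fell in RNA and 33 rose and 104 fell in RPFs.

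**Figure D1:**
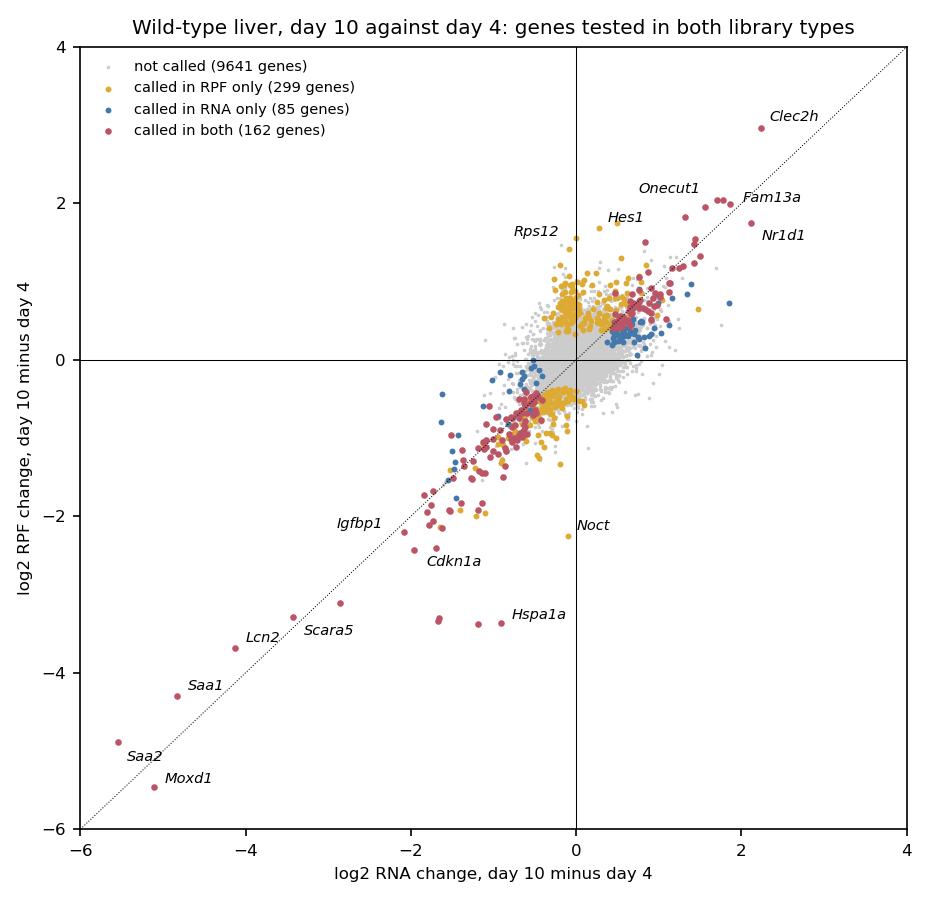
Log2 RNA change (x) against log2 RPF change (y), day 10 minus day 4, of the genes tested in both library types, 1 point a gene and 3 mice a day; the dotted line marks equal changes. The 162 genes called in both lie in the lower left and upper right, with *Moxd1* (near 0 counts at day 10), *Saa2* and *Saa1* farthest down, while *Noct* and *Hspa1a* lie below and *Rps12* and *Hes1* above the dotted line.

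The glucose-releasing enzymes *Pck1* and *G6pc1* and 4 regulators of the fasted liver were lower at day 10, whereas most of the fasted list was not called. Of the 25 genes of the fasted list that were tested in RNA, 6 fell and 2 rose, where 1.23% and 1.09% of all genes did. Of the 26 tested in RPFs the same 6 fell and the same 2 rose, where 2.28% and 2.17% did. The medians over the list were 0.06 in RNA and -0.15 in RPFs. *Pck1* (chr2:172994744-173001066 in GRCm39), which makes the phosphoenolpyruvate for new glucose, had 1200, 1790 and 1300 RNA CPM in the mice of day 4 and 483, 531 and 513 in those of day 10. Every mouse of day 10 was below every mouse of day 4, by 2.81-fold in the means (log2 change -1.49 ± 0.16, adjusted p = 0.000769). *G6pc1* (chr11:101258369-101268729), the enzyme that frees glucose from its phosphate, had 516, 770 and 674 CPM at day 4 and 234, 150 and 177 at day 10. It too did not overlap between the days (3.5-fold lower, log2 change -1.80 ± 0.18, adjusted p = 0.000553). Its RPFs fell alike, from 613, 948 and 805 to 235, 189 and 188 CPM (log2 change -1.95 ± 0.16, adjusted p = 0.000232).

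The remaining members that fell were regulators that fasting is known to raise in liver. *Angptl4*, a secreted inhibitor of lipoprotein lipase, went from 67.1, 113 and 61.1 RNA CPM to 24.3, 13.7 and 32.8 (log2 change -1.78 ± 0.27, adjusted p = 0.00614). *Irs2*, the insulin receptor substrate, went from 34.0, 29.0 and 27.9 to 5.38, 15.2 and 8.57 (log2 change -1.63 ± 0.26, adjusted p = 0.00695). In both genes all mice of day 10 lay below those of day 4. *Igfbp1*, which binds insulin-like growth factors and is repressed by insulin, had 144, 157 and 197 CPM at day 4 and 12.7, 79.1 and 24.1 at day 10, where mouse 2 was the highest. Its change was -2.09 ± 0.43 (adjusted p = 0.0283), and it was not called without mouse 3 of day 4 (0.133) or mouse 3 of day 10 (0.117, and 0.112 in RPFs). *Sik1*, a kinase induced by cAMP, changed by -1.15 ± 0.24 in RNA (adjusted p = 0.0286) and by -1.83 ± 0.20 in RPFs (adjusted p = 0.0012), and its RNA call was lost without mouse 3 of day 4 (0.135).

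The members that rose are also known to rise in fasting, so the list did not move in one direction. *Ppargc1a*, a coactivator of gluconeogenic and mitochondrial genes, had 9.1, 9.42 and 10.4 RNA CPM at day 4 and 16.1, 19.4 and 13 at day 10 (log2 change 0.76 ± 0.18, adjusted p = 0.065). *Sds*, which breaks down serine, had 20.3, 18.1 and 21.6 CPM at day 4 and 40.2, 52.3 and 27.6 at day 10 (log2 change 1.01 ± 0.19, adjusted p = 0.0222). Neither overlapped between the days, but *Ppargc1a* RNA was not called without any single mouse except mouse 3 of day 10 (0.128 to 0.213). The count of 2 that rose in RNA was 1 without any single mouse of day 4 or mouse 1 of day 10 and 4 without mouse 2 of day 10. The members for burning fatty acids and making ketones, among them *Cpt1a*, *Pdk4* and *Acadm*, were not called in either library type.

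Some genes of the fed liver, *Acly*, *Srebf1* and *Fasn* among them, were higher at day 10, while most of the list was not called. Of 21 genes of fatty acid synthesis and its regulation, 7 rose in RNA and none fell, and 20 of 21 had a change above 0, with a median of 0.51. In RPFs 4 rose and none fell (median 0.26). Of all genes, 1.09% rose in RNA and 2.17% in RPFs. *Acly*, which makes cytosolic acetyl-CoA (chr11:100367165-100440756), had 328, 281 and 312 RNA CPM at day 4 and 610, 663 and 458 at day 10, 1.88-fold higher with no overlap (log2 change 0.91 ± 0.14, adjusted p = 0.00695). *Srebf1*, the transcription factor that insulin uses to raise lipid synthesis, had 51.4, 48.2 and 75.5 CPM at day 4 and 133, 115 and 99.8 at day 10 (log2 change 1.00 ± 0.16, adjusted p = 0.00881). *Fasn*, the fatty acid synthase, had 273, 187 and 288 CPM at day 4 and 623, 500 and 366 at day 10. All mice of day 10 were above those of day 4 in both genes, and the change of *Fasn* was 0.99 ± 0.19 in RNA (adjusted p = 0.0233) and 0.83 ± 0.24 in RPFs (adjusted p = 0.103, not called).

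*Gpam* and *Acss2*, for the first step of triglyceride synthesis and for acetate use, rose in both library types, *Acacb* in RNA but not in RPFs and *Fads1* in RPFs but not in RNA. The RPF calls of *Gpam* (0.123 to 0.213), *Acss2* (0.143 to 0.22) and *Fads1* (0.113 to 0.238) were each lost in 4 of the 6 fits without 1 mouse. *Acacb*, an acetyl-CoA carboxylase, had 82.5, 58.8 and 70.0 RNA CPM at day 4 and 110, 99.3 and 97.5 at day 10 (log2 change 0.54 ± 0.13, adjusted p = 0.0591), whereas its RPF levels overlapped (change 0.25 ± 0.14, adjusted p = 0.411). *Angptl8*, a hormone that feeding raises in liver and that was not on the list, had 8.35, 7.95 and 4.89 RNA CPM at day 4 and 40.2, 17.9 and 14.4 at day 10 (log2 change 1.78 ± 0.35, adjusted p = 0.0241). It was highest in mouse 1 of day 10 and did not overlap between the days, and it was not called without mouse 3 of day 4 (0.133). The RNA call of *Acacb* was lost without mouse 2 (0.197) or 3 (0.241) of day 4 or mouse 1 (0.139) or 3 (0.117) of day 10. The RPF count of 4 calls in the fed list was 1 without mouse 1 or mouse 2 of day 4 and 1 without mouse 1 of day 10, where 1 member was then called lower, and it was 8 without mouse 2 of day 10.

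Some genes of cholesterol synthesis rose as well, and most were not called. Of 25 members, 7 rose in RNA and 6 in RPFs, where 1.09% and 2.17% of all genes did. None fell, and the medians were 0.37 and 0.31. *Hmgcs1*, an early enzyme of the pathway, had 372, 276 and 318 RNA CPM at day 4 and 546, 514 and 445 at day 10 (log2 change 0.64 ± 0.13, adjusted p = 0.0305). The days did not overlap. *Lss*, which closes the sterol ring, changed by 0.94 ± 0.14 in RNA (adjusted p = 0.00626) and by 0.41 ± 0.13 in RPFs (adjusted p = 0.134). *Sqle* overlapped between the days and was not called (RNA change 0.23 ± 0.16, adjusted p = 0.651). These counts were as low as 2 in RNA without mouse 2 or 3 of day 4, and 2 in RPFs without mouse 1 or 3 of day 4, and in the fit over all 24 mice no member was called. The RNA call of *Hmgcs1* was lost without mouse 2 (0.11) or 3 (0.165) of day 4. *Aacs*, a cytosolic enzyme that turns ketone bodies to lipid synthesis and that is on neither list, was among the 10 largest increases, from 29.8, 20.9 and 29.5 to 104, 65.9 and 56.5 RNA CPM (log2 change 1.50 ± 0.21, adjusted p = 0.00426), with no overlap.

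**Figure D2:**
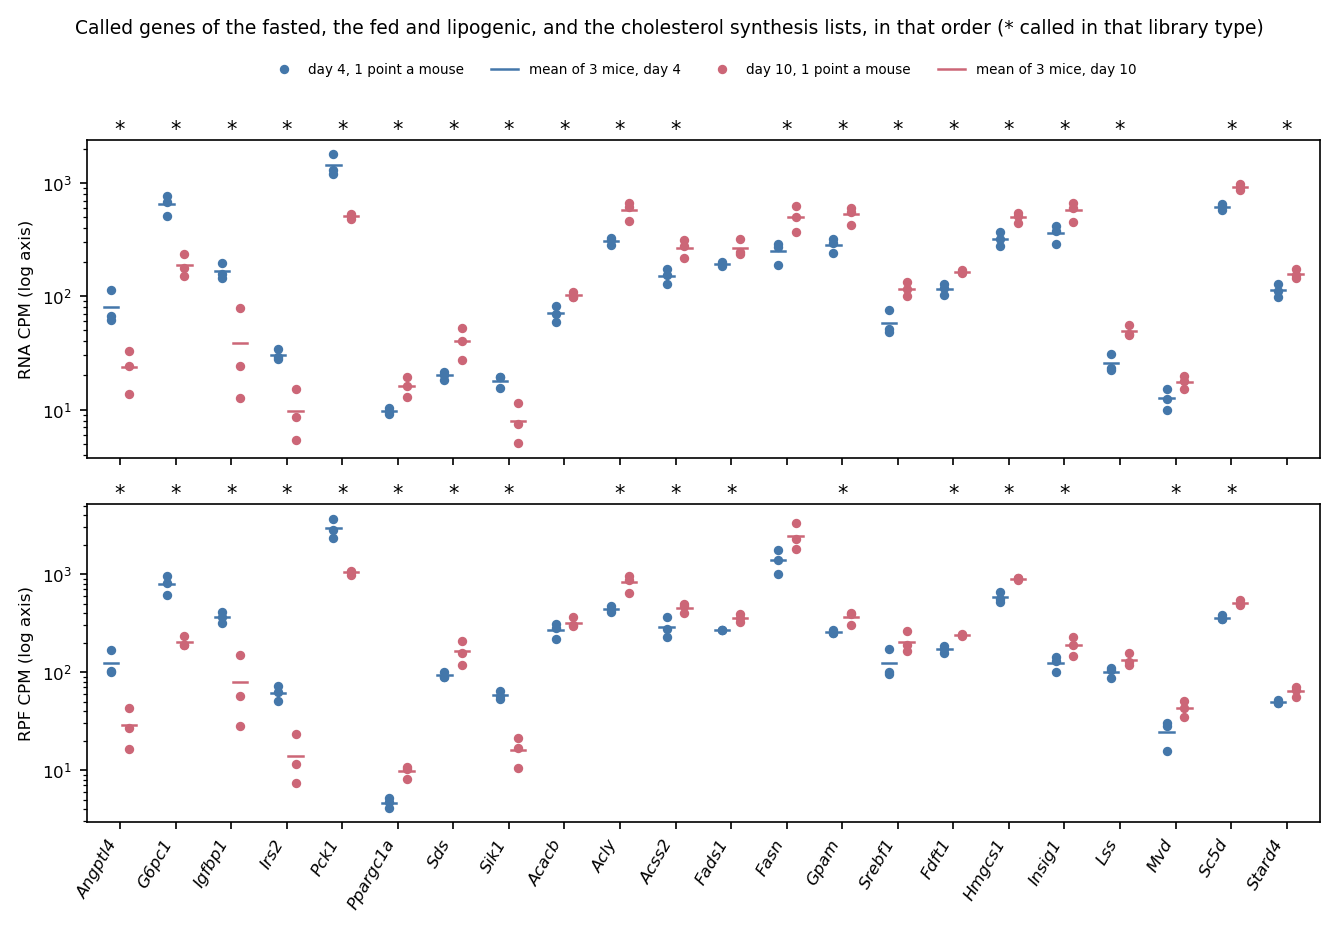
RNA (top) and RPF (bottom) levels in CPM on log axes of called members of the fasted, the fed and lipogenic, and the cholesterol synthesis lists, with 1 point for each of the 3 mice a day and a line at their mean; stars mark calls in that library type. *Pck1*, *G6pc1* and *Irs2* lie lower at day 10 and *Acly*, *Srebf1* and *Hmgcs1* higher, with the RNA points of the days apart.

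Acute phase genes were lower at day 10. All 27 members tested in RNA had a change below 0, with a median of -1, and 14 fell and none rose. In RPFs all 27 were again below 0 (median -1.11), and 17 fell. Of all genes, 1.23% fell in RNA and 2.28% in RPFs. Summed over the list, the RNA level was 52300, 30800 and 42200 CPM in the mice of day 4 and 22200, 30200 and 23900 in those of day 10, so mouse 2 of day 4 lay just above mouse 2 of day 10. *Saa1* (chr7:46389916-46392547), a serum amyloid that inflammation raises, had 580, 52.7 and 541 RNA CPM at day 4 and 4.86, 24.1 and 11.9 at day 10. The mean was 28.7-fold lower at day 10 (log2 change -4.83 ± 0.73, adjusted p = 0.00599), and although mouse 2 of day 4 was far below its group it was still above every mouse of day 10. The RPFs of *Saa1* had the same order, with 1210, 148 and 1260 CPM against 16.4, 77.5 and 39.5 (log2 change -4.30 ± 0.73, adjusted p = 0.0115). *Saa2*, next to *Saa1* and nearly identical to it, went from 586, 27.3 and 593 to 3.81, 14.4 and 7.32 RNA CPM, and since reads can be split between the pair, their separate values are uncertain.

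*Lcn2*, which binds bacterial iron carriers, had 29.8, 5.36 and 23.4 RNA CPM at day 4 and 1.39, 1.34 and 0.418 at day 10 (log2 change -4.13 ± 0.62, adjusted p = 0.00588). *Hp*, the haptoglobin that binds free haemoglobin, had 4200, 2490 and 2970 CPM at day 4 and 1150, 1500 and 1060 at day 10 (log2 change -1.38 ± 0.20, adjusted p = 0.00476). Neither overlapped. *Saa4*, which is made constitutively, changed by -1.73 ± 0.21 (adjusted p = 0.00263), *Orm1* by -1.09 ± 0.19 (adjusted p = 0.0134), *Serpina3n* by -1.004 ± 0.14 (adjusted p = 0.00426), and *Steap4*, a metalloreductase, by -1.76 ± 0.38 (adjusted p = 0.0335). *Steap4* was not called without mouse 1 or 3 of either day (0.102 to 0.119). *Apcs* and *Hpx* were called lower in RNA although mice of the days overlapped, and both calls were lost without mouse 1 or 3 of either day (0.231 to 0.312). *Fgb*, for fibrinogen, had 9550, 5640 and 7540 CPM at day 4 and 4340, 6210 and 4940 at day 10 and was not called (change -0.55 ± 0.21, adjusted p = 0.308). *Scara5*, a ferritin receptor that is not on the list, fell with these genes, from 32.6, 14.4 and 29.5 to 0.52, 5.02 and 1.25 RNA CPM (log2 change -3.43 ± 0.46, adjusted p = 0.00388). Without mouse 2 of day 4, 17 acute phase genes fell in RNA and 19 in RPFs. The RNA count was 10 without mouse 1 or 3 of day 4 or mouse 3 of day 10 and 20 without mouse 2 of day 10, and the RPF count was 11 without mouse 1 or 3 of day 4 or mouse 1 of day 10.

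No neutrophil or monocyte marker was called, but most had changes below 0 in these bulk tissues, in which fewer cells of a type and less RNA per cell cannot be told apart. In RNA 3 of the 4 members tested were below 0 (median -0.66, lowest -1.59), and in RPFs all 5 were (median -0.29, lowest -1.56). Their sums, 60.4 to 71.3 RNA CPM at day 4 and 51.3 to 68.9 at day 10, and 54.2 to 65 and 39.5 to 59 in RPFs, overlapped between the days and were mostly *Lyz2*, with a mean of 55.4 RNA CPM over the 6 mice. Kupffer cell markers, of resident macrophages, summed to 300 to 352 and 280 to 345, and of 11 only *C1qa* was called lower in RNA (20.5, 15.9 and 17.5 against 10.8, 13.2 and 10.7 CPM) and only *Folr2* in RPFs. Endothelial markers summed to 551 to 570 at day 4 and 599 to 622 at day 10, and stellate cell markers to 436 to 465 and 482 to 591, so neither sum overlapped between the days in RNA. The stellate markers were above 0 in 10 of 10 in RNA (median 0.40) and in RPFs (median 0.19), where their sums ran from 967 to 1040 and from 1040 to 1230. *Reln* was called higher in RNA (a call kept only without mouse 2 of day 10 when 1 mouse was left out, 0.107 to 0.244 otherwise). *C1qa* and *Folr2* were likewise not called in most fits without 1 mouse (up to 0.311 and 0.299). *Il1b*, a cytokine of macrophages, was low in all mice and fell, from 6.26, 3.33 and 4.28 to 0.52, 1.67 and 1.67 RNA CPM (log2 change -1.84 ± 0.41, adjusted p = 0.0415), a call lost without mouse 1 (0.184) or 3 (0.122) of day 4 or mouse 1 of day 10 (0.136). *Cebpb*, a transcription factor that serves acute phase genes, had 64.1, 49.7 and 61.3 CPM at day 4 and 34.7, 29.3 and 29.5 at day 10 (log2 change -0.90 ± 0.13, adjusted p = 0.00452), without overlap. The part of any cell type in the acute phase result was not tested.

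Several targets of p53, *Cdkn1a* and *Mdm2* among them, were lower at day 10, while most of the list was not called in either library type. Of 17 members tested in RNA, 6 fell and none rose (median -0.65), where 1.23% of all genes fell. Of 19 in RPFs, 9 fell and none rose (median -0.75), where 2.28% of all genes fell. The summed RNA level was 747, 839 and 795 CPM at day 4 and 515, 489 and 504 at day 10, and the summed RPF level 313, 355 and 323 against 173, 172 and 181, with the mice of each day close together and the days apart. *Cdkn1a* (chr17:29309936-29319701), which encodes the cell cycle inhibitor p21, had 47.0, 48.4 and 40.3 RNA CPM at day 4 and 14.2, 9.36 and 11.1 at day 10. It was 3.92-fold lower (log2 change -1.97 ± 0.16, adjusted p = 0.000119) and 5.42-fold lower in RPFs (71.1, 67.2 and 68.6 against 17, 8.76 and 12.4 CPM). *Mdm2*, the ubiquitin ligase that p53 raises against itself, had 43.4, 49.9 and 40.5 RNA CPM at day 4 and 32.6, 25.4 and 27.2 at day 10 (log2 change -0.65 ± 0.13, adjusted p = 0.0267). *Trp53inp1* had 231, 294 and 288 CPM at day 4 and 144, 150 and 156 at day 10 (log2 change -0.85 ± 0.12, adjusted p = 0.00426). All 3 genes were without overlap. *Ccng1*, *Fas* and *Aen* also fell in RNA, and *Aen* was not called without any single mouse (0.115 to 0.25). *Gdf15*, a secreted stress hormone, fell in RPFs, from 7.55, 9.77 and 8.44 to 2.43, 1.59 and 1.67 CPM (log2 change -2.14 ± 0.21, adjusted p = 0.000947). *Phlda3*, *Eda2r* and *Zmat3* had RPF changes of -1.26, -1.54 and -0.74 and were not called (adjusted p = 0.125, 0.116 and 0.185). The RPF count was 4 without mouse 1 of day 4 and 5 without mouse 3 of day 10, and without the latter *Mdm2* was not called in RNA (0.119).

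**Figure D3:**
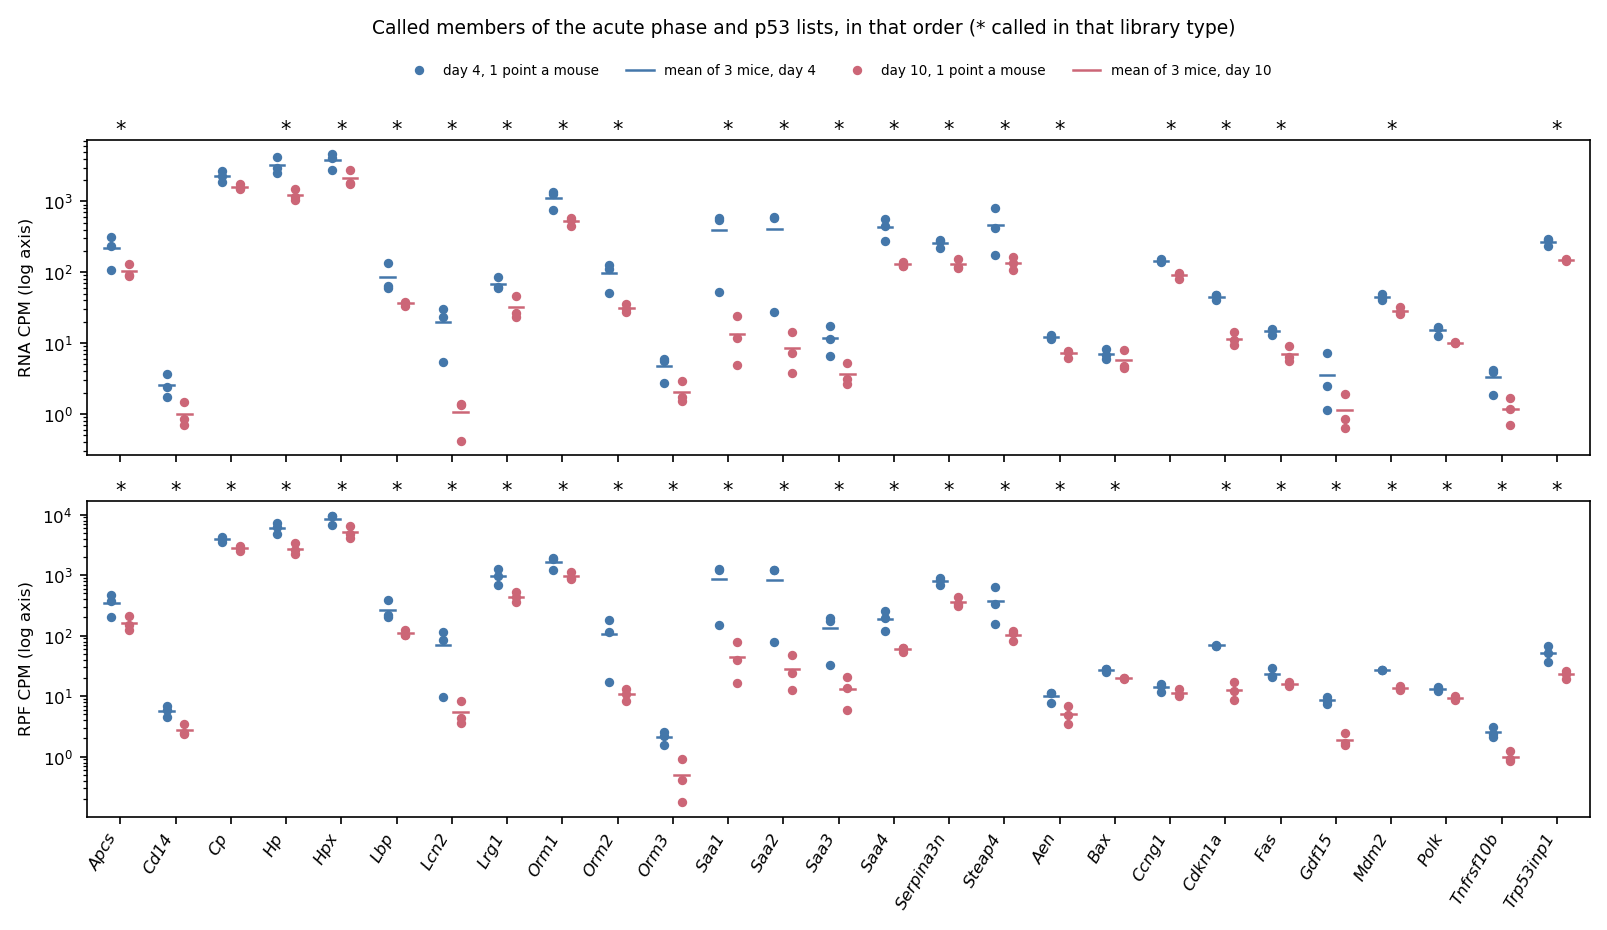
RNA (top) and RPF (bottom) levels in CPM on log axes of the called members of the acute phase and p53 lists, with 1 point for each of the 3 mice a day and a line at their mean; stars mark calls in that library type. For *Saa1* and *Saa2* 1 mouse of day 4 lies near the mice of day 10, while for *Cdkn1a*, *Mdm2* and *Trp53inp1* the mice of each day lie close together.

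Other stress genes fell in smaller numbers. Of the glucocorticoid-responsive list, which shares *Cdkn1a* with the p53 list and *Per1* with the clock list, 3 of 12 fell in RNA (median -0.60). In RPFs 7 of 14 fell and *Pik3r1* rose (median -0.86). Of all genes, 1.23% fell in RNA, and 2.28% fell and 2.17% rose in RPFs. *Tsc22d3*, an early glucocorticoid target, had 18.4, 35.3 and 19.3 RNA CPM at day 4 and 14.2, 10.9 and 11.3 at day 10 (log2 change -1.01 ± 0.24, adjusted p = 0.0584), whereas *Fkbp5*, another, overlapped (14.2, 11.3 and 12.6 against 17.9, 10.0 and 9.83, change -0.01 ± 0.23). *Tsc22d3* was not called in RNA without mouse 2 of day 4 (0.158) or mouse 2 (0.104) or 3 (0.189) of day 10. The metallothionein *Mt2* was the list's largest RPF decrease, but 1 mouse carried most of it, with 56.8, 3.05 and 10.6 CPM at day 4 and 0.911, 2.39 and 0.941 at day 10 (log2 change -4.08 ± 0.94, adjusted p = 0.0434). It was not called without mouse 1 (0.147) or mouse 3 (0.157) of day 10. The rise of *Pik3r1* was lost in 5 of the 6 fits without 1 mouse (0.116 to 0.195). Without mouse 3 of day 10 the list had 1 call in RNA and 2 in RPFs.

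Among heat shock genes, 3 of 16 fell in RNA and 5 in RPFs, where 1.23% and 2.28% of all genes did. The cold-inducible *Rbm3* rose in RPFs. *Hspa1a* (chr17:35188166-35191132), an inducible chaperone, had 51.6, 70.8 and 38.7 RNA CPM at day 4 and 17.7, 34.3 and 34.1 at day 10 (log2 change -0.91 ± 0.24, adjusted p = 0.0927). Its RPFs fell much further, from 241, 266 and 80.8 to 30.6, 11.2 and 14.7 CPM (log2 change -3.36 ± 0.44, adjusted p = 0.00392), and *Hspa1b*, its near-identical neighbour with which reads can be shared, did the same (RPF change -3.38 ± 0.46, adjusted p = 0.00413). The RNA call of *Hspa1a* was lost without mouse 1 (0.184) or 2 (0.322) of day 4 or mouse 1 (0.212) or 3 (0.127) of day 10. The counts moved with single mice, from 1 in RNA without mouse 1 or 2 of day 4 or mouse 3 of day 10 to 7 without mouse 2 of day 10, and from 2 in RPFs without mouse 1 of day 4 or mouse 3 of day 10 to 8 without mouse 2 of day 10. Of 22 chaperones and folding enzymes of the endoplasmic reticulum, none was called in RNA and only *Derl3* in RPFs, lower. Of the integrated stress response list only *Cebpb* was called of 11 tested in RNA, and *Ddit4*, *Gdf15* and *Cebpb* of 15 in RPFs, all lower. Of the immediate early genes, *Egr1* and *Ier2* rose and *Jund* fell in both library types, out of 16 tested in RNA and 17 in RPFs, and *Nr4a1* fell in RPFs. These counts stand beside 1.09% of all genes higher and 1.23% lower in RNA, and 2.17% and 2.28% in RPFs. Of the 6 fits without 1 mouse, 4 lost the calls of *Ier2* RNA (0.105 to 0.242), *Jund* RNA (0.153 to 0.191), *Jund* RPFs (0.137 to 0.275) and *Nr4a1* RPFs (0.123 to 0.17), and the 3 without 1 mouse of day 4 lost *Egr1* RPFs (0.146 to 0.217). *Derl3* was lost without mouse 1 (0.187) or 2 (0.139) of day 4 or mouse 3 of day 10 (0.106), *Ddit4* without mouse 1 of day 4 (0.111) or mouse 3 of day 10 (0.122), and *Rbm3* without mouse 1 (0.141) or 2 (0.124) of day 4 or mouse 1 of day 10 (0.123).

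Genes that interferon switches on were near their day 4 level in RNA. None of the 44 members tested was called by edgeR, with a median change of 0.01 and 22 members on each side of 0, and DESeq2 called 1 higher and 1 lower (over all genes, 1281 of 11026 had an unadjusted p under 0.05). In RPFs 2 of 46 fell and none rose (median -0.08), where 2.28% of all genes fell, so the count was near that of genes at large. *Ifit1*, an antiviral gene that interferon raises steeply, had 12.3, 10.3 and 14.9 RNA CPM at day 4 and 13.9, 19.9 and 8.78 at day 10 (change 0.20 ± 0.25, adjusted p = 0.819). *Isg15*, an antiviral ubiquitin-like protein, had 33.2, 30.6 and 33.5 RPF CPM at day 4 and 30.7, 35.9 and 21.5 at day 10 (change -0.14 ± 0.16, adjusted p = 0.737). The members that fell in RPFs were *Trim25*, a ubiquitin ligase of the RNA-sensing pathway, with 84.7, 74.6 and 77.8 CPM at day 4 and 56.3, 52.5 and 53.4 at day 10 (log2 change -0.55 ± 0.09, adjusted p = 0.0113), and *Iigp1*, an immunity-related GTPase, with 413, 435 and 437 against 264, 334 and 336 (log2 change -0.46 ± 0.11, adjusted p = 0.0584). Both were without overlap. *Iigp1* was not called without any single mouse of day 4 or mouse 1 of day 10 (0.126 to 0.187). Without mouse 2 of day 10 the list had 6 RPF calls lower, and without mouse 1 of day 10 it had 2 higher and 1 lower.

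No antigen presentation gene was called among 20 in RNA and 22 in RPFs (1755 of 10899 genes had an unadjusted p under 0.05 in RPFs). Of 16 genes for virus sensing and inflammation tested in RNA, only *Il1b* was called, and it fell, where 1.23% of all genes did. Of 18 tested in RPFs, *Il1b* and *Tlr2*, a receptor for microbial lipids, fell and *Cxcl9*, a chemokine that draws T cells, rose. Among all genes 2.28% fell and 2.17% rose in RPFs. *Tlr2* was not called without mouse 1 or 3 of either day (0.181 to 0.302). *Cxcl9* RPFs had 4.05, 3.68 and 3.53 CPM at day 4 and 5.69, 9.11 and 9.82 at day 10 (log2 change 1.11 ± 0.22, adjusted p = 0.0254), while its RNA levels overlapped (18.4, 17.0 and 13.4 against 16.8, 25.4 and 15.3). With no uninjected mice, a response already present at day 4 and unchanged at day 10 cannot be told apart from none.

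Most of the 22 clock genes were not called. In RNA 17 were tested, 1 rose and 1 fell (median -0.10), where 1.09% and 1.23% of all genes did, and in RPFs 19 were tested, 1 rose and 3 fell (median -0.11), where 2.17% and 2.28% did. *Per3*, *Bhlhe41* and *Ciart* were too low to be tested in either library type and *Per1* and *Dbp* in RNA. RefSeq windows of GRCm38.p6 that run from 250 bases before to 50 after a gene start were found for 18 of the 22 (23 windows). An E-box (CACGTG) lay in 26.1% of the clock windows and in 7.15% of all 32851 windows, a D-box (TTANGTAA) in 4.35% and 2.32%, a ROR and REV-ERB element (NTAGGTCA) in 8.7% and 2.59%, an interferon-stimulated response element (GAAANNGAA) in 8.7% and 8.56%, a cAMP response element (TGACGTCA) in 4.35% and 1.79%, and a heat shock element (GAANNTTC) in 0% and 7.86%, each searched on both strands and with no overlap among those in capitals. The 250 bases before the start are shown 5′ to 3′ for the 4 called members that have a window, as a region where elements of the loop can lie. Capitals mark matches to those motifs, an E-box in *Per1*, a ROR and REV-ERB element in *Nfil3* and an interferon-stimulated response element in *Nr1d1* and *Noct*. The windows of *Nr1d1* and *Noct* held no E-box, D-box or ROR and REV-ERB element. A match is a description of these letters only. *Per1* has 2 windows, and the one farther upstream is shown, whereas the other held none of these motifs.
Nr1d1 (chr11:98775378-98775627, minus strand): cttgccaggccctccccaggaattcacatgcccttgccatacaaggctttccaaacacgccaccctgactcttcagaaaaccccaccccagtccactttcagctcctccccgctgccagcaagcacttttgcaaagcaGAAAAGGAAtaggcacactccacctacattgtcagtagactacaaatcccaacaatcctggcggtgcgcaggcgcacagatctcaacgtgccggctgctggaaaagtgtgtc
Per1 (chr11:69098699-69098948, plus strand): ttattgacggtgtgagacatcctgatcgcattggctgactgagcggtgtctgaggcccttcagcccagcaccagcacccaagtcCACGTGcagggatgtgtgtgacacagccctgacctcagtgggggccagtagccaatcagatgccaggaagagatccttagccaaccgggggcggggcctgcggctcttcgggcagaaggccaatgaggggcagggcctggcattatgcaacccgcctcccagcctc
Nfil3 (chr13:52981040-52981289, minus strand): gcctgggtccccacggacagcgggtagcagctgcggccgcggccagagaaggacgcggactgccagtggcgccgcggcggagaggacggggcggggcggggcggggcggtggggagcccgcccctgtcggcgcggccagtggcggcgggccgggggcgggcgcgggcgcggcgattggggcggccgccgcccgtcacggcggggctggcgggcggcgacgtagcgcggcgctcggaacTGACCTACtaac
Noct (chr3:51224197-51224446, plus strand): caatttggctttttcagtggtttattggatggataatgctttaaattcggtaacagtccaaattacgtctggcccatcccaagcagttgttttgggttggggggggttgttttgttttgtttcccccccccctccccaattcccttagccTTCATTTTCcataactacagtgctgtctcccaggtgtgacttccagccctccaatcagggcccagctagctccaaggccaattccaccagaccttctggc

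*Nr1d1* (chr11:98658752-98666188 in GRCm39), which encodes the repressor REV-ERB alpha, was the clock gene that rose. It had 0.948, 3.7 and 1.02 RNA CPM at day 4 and 9.71, 6.19 and 9.41 at day 10, 4.47-fold higher with no overlap (log2 change 2.12 ± 0.40, adjusted p = 0.0198). Its RPFs had 3.98, 11.3 and 3.43 CPM at day 4 and 28.7, 9.82 and 23.1 at day 10 (log2 change 1.75 ± 0.44, adjusted p = 0.0633). In both library types mouse 2 was the highest of day 4 and mouse 2 the lowest of day 10, and in RPFs that pair overlapped. The RPF call was lost without mouse 1 (0.253) or 3 (0.214) of day 4 or mouse 1 (0.18) or 3 (0.177) of day 10. *Nr1d2*, its paralogue, had 15.9, 26.2 and 12.0 RNA CPM at day 4 and 31.4, 27.1 and 41.0 at day 10, with mouse 2 again the highest of day 4 and the lowest of day 10, and missed the threshold (change 0.86 ± 0.23, adjusted p = 0.106).

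*Per1*, a repressor of the loop that glucocorticoids also induce, fell in RPFs, from 2.23, 5.99 and 4.61 to 1.82, 1.24 and 0.836 CPM (log2 change -1.64 ± 0.39, adjusted p = 0.0505). The days did not overlap, but the call was lost without mouse 2 (0.138) or 3 (0.152) of day 4 or mouse 3 of day 10 (0.165). *Nfil3*, a repressor at D-boxes, had 49.2, 48.4 and 43.5 RPF CPM at day 4 and 22.2, 34.3 and 23.6 at day 10 (log2 change -0.82 ± 0.15, adjusted p = 0.0179), and its RNA changed by -0.65 ± 0.18 (adjusted p = 0.126). *Bhlhe40*, which represses at E-boxes, was the member that fell in RNA, from 42.9, 52.7 and 41.5 to 37.1, 25.7 and 25.7 CPM (log2 change -0.63 ± 0.16, adjusted p = 0.0741). That call was lost without any single mouse but mouse 1 of day 10 (0.141 to 0.283).

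*Noct*, a phosphatase whose expression is rhythmic, was the 1 gene whose TE fell in the fit without a mouse block (0.00982% of the 10187 genes tested for TE). With the block, which joins the RNA and RPF libraries of a mouse, 28 genes fell, *Noct* among them (-2.13, adjusted p = 0.000512). Its RNA overlapped between the days, with 113, 91.3 and 105 CPM against 87.4, 114 and 88.0 (change -0.10 ± 0.13, adjusted p = 0.841), whereas its RPFs went from 7.63, 14.6 and 8.73 to 3.87, 1.06 and 1.15 CPM with no overlap (log2 change -2.26 ± 0.41, adjusted p = 0.0149). The TE change was -2.15 ± 0.42 (adjusted p = 0.0453). RPFs were counted on 1 transcript of a gene and RNA was summed over all its transcripts, so a shift between transcripts of *Noct* would enter this value, and that was not tested. The TE call was lost in 4 of the 6 fits without 1 mouse, those without mouse 1 (0.156) or 2 (0.337) of day 4 or mouse 2 (0.207) or 3 (0.199) of day 10. None of these fits had the mouse block.

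The core activators and the remaining outputs were not called in either library type. *Bmal1* had 30.7, 23.8 and 23.6 RNA CPM at day 4 and 20.8, 25.1 and 23.0 at day 10 (change -0.18 ± 0.14, adjusted p = 0.698), and *Clock* changed by -0.11 ± 0.11, *Npas2* by -0.37 ± 0.38, *Cry1* by -0.34 ± 0.17 and *Cry2* by 0.18 ± 0.18. *Per2* had 2.09, 2.59 and 2.65 RNA CPM at day 4 and 4.33, 3.34 and 2.72 at day 10 (change 0.52 ± 0.30, adjusted p = 0.575). The D-box activators *Tef* and *Hlf* changed by 0.45 ± 0.17 and -0.07 ± 0.18 in RNA and *Dbp* by 0.38 ± 0.41 in RPFs. *Rora*, an activator at ROR elements, changed by 0.14 ± 0.14, and the outputs *Usp2* and *Wee1* by -0.45 ± 0.45 and 0.01 ± 0.33. Of these only *Per2* RNA, with 2.65 and 2.72 CPM as the nearest mice, and *Usp2* RPFs did not overlap between the days. How often uncalled genes at large did not overlap was not counted, so nothing is drawn from this. *Per3*, *Bhlhe41* and *Ciart* stayed at or under 1.91 CPM in all mice.

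**Figure D4:**
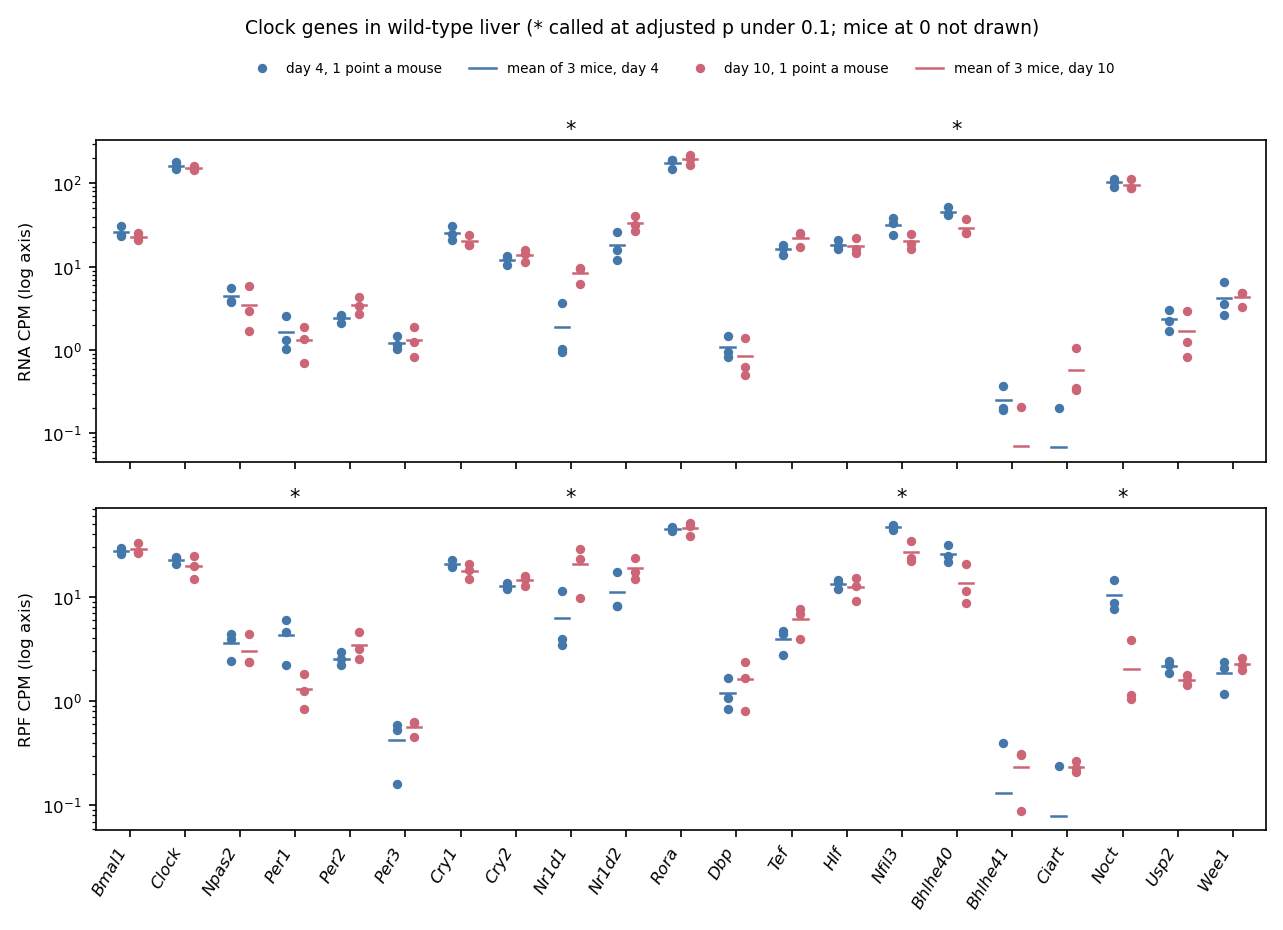
RNA (top) and RPF (bottom) levels in CPM on log axes of the clock genes described, with 1 point for each of the 3 mice a day and a line at their mean; mice at 0 are not drawn and stars mark calls. *Nr1d1* is higher at day 10 in both panels, *Noct* is lower in RPFs at like RNA levels, and for *Bmal1*, *Clock*, *Cry1* and *Rora* the points of the days overlap.

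Large increases were also seen in genes outside these lists. *Clec2h*, a C-type lectin, had 2.09, 3.33 and 2.44 RNA CPM at day 4 and 11.4, 16 and 9.62 at day 10 (log2 change 2.24 ± 0.27, adjusted p = 0.00278). *Fam13a* (chr6:58909075-59001534) had 7.59, 7.58 and 10.6 CPM at day 4 and 30.3, 33.4 and 29.3 at day 10 (log2 change 1.86 ± 0.16, adjusted p = 0.000165). *Onecut1*, a hepatocyte transcription factor also called HNF6, had 35.3, 16.6 and 46.0 CPM at day 4 and 114, 100.0 and 104 at day 10 (log2 change 1.71 ± 0.24, adjusted p = 0.00426). The mice of day 10 were all above those of day 4 in these genes and in RPFs likewise, with RPF changes of 2.97, 2.00 and 2.05. *Sucnr1*, the succinate receptor, and *Abcd2*, a peroxisomal transporter, rose by 1.43 ± 0.20 and 1.43 ± 0.28 in RNA (adjusted p = 0.00435 and 0.0233). *Arrdc3* and *Hes1*, a target of Notch, were among the 10 largest RPF increases, and *Hes1* RNA overlapped (10.2, 21.4 and 18.3 against 15.4, 24.4 and 20.7 CPM) while its RPFs did not (1.67, 2.84 and 2.75 against 6.6, 10.6 and 5.75, log2 change 1.69 ± 0.29, adjusted p = 0.0112). *Egr1* and *Tcf24* rose with 1 high mouse: mouse 2 of day 10 had 17.2 and 25.9 RNA CPM, above the 5.55 and 9.41 and the 6.94 and 3.14 of the others. *Egr1* was not called in RNA without any 1 mouse of day 4 (0.147 to 0.218) or mouse 2 of day 10 (0.107), nor *Tcf24* without any 1 mouse of day 4 (0.135 to 0.244) or mouse 2 of day 10 (0.104).

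Several genes that growth hormone keeps high in male liver were lower. Of 23 male-biased genes tested, 4 fell and *Socs2* rose in RNA (median -0.21), where 1.23% of all genes fell and 1.09% rose. In RPFs 3 fell and *Socs2* rose (median -0.24), where 2.28% and 2.17% did. *Egfr*, the epidermal growth factor receptor (chr11:16702198-16868158), had 1900, 1330 and 1510 RNA CPM at day 4 and 502, 773 and 558 at day 10, 2.58-fold lower with no overlap (log2 change -1.37 ± 0.18, adjusted p = 0.00388). *Moxd1*, a monooxygenase, had 5.88, 5.73 and 3.26 CPM at day 4 and 0, 0 and 0.418 at day 10 in RNA (adjusted p = 0.00319) and 8.75, 11 and 8.93 against 0, 0.619 and 0 in RPFs (adjusted p = 0.000608). *Cyp7b1*, an oxysterol hydroxylase, had 641, 581 and 482 CPM at day 4 and 262, 192 and 397 at day 10 (log2 change -1.004 ± 0.21, adjusted p = 0.0301). *Socs2*, which growth hormone induces and which limits its signal, rose, from 15.6, 11.1 and 19.8 to 26.5, 56.0 and 41.4 CPM (log2 change 1.42 ± 0.25, adjusted p = 0.0143). *Igf1*, *Hsd3b5*, *Elovl3* and *Ghr* were not called, and of 3 female-biased genes tested in RPFs *Cyp17a1* rose, a call lost without mouse 1 of day 4 (0.138). *Cyp7b1* was not called without mouse 1 of day 4 (0.118) or mouse 1 of day 10 (0.102).

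The major urinary proteins, secreted carriers of pheromones, were examined as a group after *Mup1* had been seen to fall. Of 22 *Mup* genes tested in RNA, 19 fell and none rose, with changes from -1.69 to -0.29, where 1.23% of all genes fell. Together they took 21.3, 22.3 and 18.3% of all RNA counts at day 4 and 10.1, 6.96 and 13.2% at day 10. In RPFs 4 of 15 fell, where 2.28% of all genes did. Their shares of all RPF counts were 4.07, 5.16 and 4.11% against 2.8, 2.73 and 4.08%, where mouse 3 of day 10 lay within the mice of day 4. The genes are near-identical copies, so reads can be assigned to the wrong member, and the sums are safer than single genes.

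Some periportal genes rose, whereas 2 of 21 pericentral, 2 of 17 bile acid, 1 of 19 drug-metabolizing and 1 of 30 cell cycle genes were called in RNA, and 3 of 21, 2 of 17, 2 of 19 and 2 of 25 in RPFs. Over all genes 1.09% rose and 1.23% fell in RNA, and 2.17% and 2.28% in RPFs. Of 15 periportal (zone 1) genes tested in RNA, 4 rose and *Pck1* fell (median 0.22, with 12 above 0), and in RPFs 3 of 15 rose and *Pck1* fell (median 0.12). Those that rose in RNA were *Hal*, *Sds* and *Gls2*, of amino acid breakdown, and *Etnppl*, which breaks down phosphoethanolamine. *Etnppl* had 66.6, 81.9 and 69.0 RNA CPM at day 4 and 138, 114 and 115 at day 10 (log2 change 0.75 ± 0.12, adjusted p = 0.00805). Of 21 pericentral (zone 3) genes, *Rnase4* and the WNT target *Tbx3* fell in both library types and *Gstm3* rose in RPFs. *Tbx3* had 15.2, 18.8 and 12.0 RNA CPM at day 4 and 8.15, 3.85 and 9.2 at day 10 (log2 change -1.14 ± 0.27, adjusted p = 0.0574). The bile acid transporter *Slco1a4* rose from 24.7, 34.6 and 39.7 to 54.4, 60.7 and 76.5 CPM (log2 change 0.95 ± 0.17, adjusted p = 0.0152), and of the xenobiotic list *Cyp3a13* fell in RNA and *Cyp2c55* and *Gstm3* rose in RPFs. Of 30 cell cycle genes tested in RNA only *Tk1*, a thymidine kinase, was called, and it rose (3.03, 3.7 and 6.52 against 9.88, 9.36 and 8.57 CPM, log2 change 1.08 ± 0.26, adjusted p = 0.0665). In RPFs *Tk1* rose and *Ccnd1*, the G1 cyclin, fell. *Tk1* RNA was not called without mouse 1 or 2 of day 4 or mouse 1 or 3 of day 10 (0.133 to 0.254), nor *Tbx3* RNA without mouse 1 (0.145) or 2 (0.226) of day 4. Calls lost in 4 of the 6 fits without 1 mouse were those of *Rnase4* RNA (0.157 to 0.27), *Cyp3a13* RNA (0.127 to 0.178), *Gls2* RPFs (0.103 to 0.274) and *Tk1* RPFs (0.178 to 0.353), and those lost in 3 were *Hal* RNA (0.104 to 0.193) and *Ccnd1* RPFs (0.114 to 0.148). *Gstm3* RPFs were lost without mouse 1 (0.108) or 3 (0.122) of day 4, *Tbx3* RPFs without mouse 1 (0.138) or 2 (0.114) of day 4, and *Rnase4* (0.133) and *Sds* (0.138) RPFs without mouse 1 of day 4. Mouse 2 of day 10 stood below the other mice of its day, with summed RNA levels of 5460 against 8350 and 8450 CPM for zone 3, 5590 against 7840 and 8140 for bile acid genes and 7190 against 11800 and 9390 for the xenobiotic list. Without it 5 bile acid genes rose and 1 fell in RNA, against 1 and 1 with it, and 3 xenobiotic genes rose and 1 fell, against 0 and 1.

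TE rose for 49 genes (0.481% of 10187), of which 42 encode cytosolic ribosomal proteins. With the mouse as a block 136 genes rose, 66 of them ribosomal protein genes, and those that fell included *Hspa1a* (-2.41, adjusted p = 9.58e-05), *Hspa1b* (-2.13, adjusted p = 8.43e-05), *Saa3* (-1.58, adjusted p = 0.0128) and *Orm2* (-1.39, adjusted p = 0.013). Ribosomal protein mRNAs carry a motif at their start through which nutrients and mTOR set their translation. None of their 82 genes was called in RNA (median -0.07), whereas 64 of 79 rose in RPFs (median 0.64). *Rps12* is an example, with 172, 207 and 196 RNA CPM at day 4 and 195, 195 and 184 at day 10, but 14.7, 11.6 and 22.1 RPF CPM against 58.4, 48.7 and 34.5 (TE change 1.56 ± 0.27, adjusted p = 0.025). Beyond the ribosome itself, TE rose for the elongation factors *Eef1a1* and *Eef1b2*, for *Tpt1*, *Npm1*, *Eif2a* and *Zc3h14*, and for *Rps18-ps5*, a pseudogene whose reads may come from *Rps18*. *Eef1a1* had 1430, 1190 and 2020 RPF CPM at day 4 and 3240, 2990 and 2830 at day 10 at like RNA levels. Fits that left out 1 mouse, run without the mouse block, called 0 to 53 genes of higher TE. They called 0 without mouse 1 of day 4 or mouse 1 of day 10, 1 without mouse 2 of day 4 and 14 without mouse 2 or mouse 3 of day 10. The fit with the mouse block was not repeated without 1 mouse. How far its calls rest on single mice was therefore not tested. The fit over all 24 mice, also without that block, called none of higher TE (352 with an unadjusted p under 0.05) and no ribosomal protein gene in RPFs.

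The other genotypes had their own day changes over the same days, and their mice were not part of the WT fit. Whether the WT change differed from the mean change of B, M and BM was tested over all 24 mice, and it did for 1426 genes in RNA (11.8% of 12040) and 1774 in RPFs (14.8% of 12000). Of the genes called in WT, which were chosen for their WT change, 157 of 256 differed in RNA (61.3%) and 221 of 484 in RPFs (45.7%). Without the BM mice 617 genes differed in RNA and 1123 in RPFs. Within each genotype, B had 7.95% of genes called higher and 7.3% lower in RNA and 18.2% and 16.2% in RPFs. BM had 18.9% and 20.9% in RNA and 22.7% and 22.6% in RPFs, and M 0.215% and 0.563% in RNA and 0.441% and 0.468% in RPFs. The WT acute phase decrease was not shared by them: the list's median RNA change was 0.68 in B, -0.04 in M and 0.49 in BM, and all 14 members called in WT RNA differed, against the 61.3% of all WT RNA calls. *Saa1* had 62.6 to 681 RNA CPM in WT at day 4 and 5.8 to 28.2 at day 10 on the scale of all 24 mice, whereas B rose from 3.95 to 4.76 at day 4 to 63.4 to 533 at day 10, and M stayed within 6.22 to 27.4 and 9.3 to 23.5. Every B, M and BM mouse of day 4 had 27.4 CPM or less, below every WT mouse of that day. The test of the difference gave -7.80 (adjusted p = 2.19e-05).

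*Cdkn1a* also fell in M (RNA change -1.004) and rose in B (0.94) and BM (0.81), with a difference of -2.21 (adjusted p = 8.61e-05). For p53 targets as a list the medians were -0.35 in M, 0.66 in B and -0.25 in BM. Genes of the fasted list varied among the other genotypes. *G6pc1* fell in WT, in B (-1.35) and in M (-2.21) and was not called in BM (1.00), and its WT change did not differ from theirs (-0.95, adjusted p = 0.328). *Angptl4* fell in all 4 genotypes, by 1.78 in WT and with -1.15, -1.71 and -0.89 in B, M and BM. *Pck1* fell in M (-1.54) as in WT, was not called in B (-0.17) and rose in BM (4.20), and the difference was -2.33 (adjusted p = 0.0052). The fed list had RNA medians of -0.26 in B, -0.18 in M and -0.86 in BM, against 0.51 in WT, and 6 of the 7 RNA calls of WT differed, beside the same 61.3%. Cholesterol synthesis genes were called in B (12 higher and 0 lower of 25) and BM (11 higher and 2 lower) in RNA, and in RPFs in B (11 higher and 4 lower) and BM (9 higher and 1 lower), with none called in M. These stand beside 7.95% and 18.9% of all genes called higher in RNA and 18.2% and 22.7% in RPFs in B and BM. Of the 7 WT RNA calls, 2 differed. The male-biased list had RNA medians of -0.84 in B, -0.28 in M and -2.13 in BM, against -0.21 in WT. In RNA 12 of its 23 genes fell in B, 2 of 23 in M and 15 of 22 in BM, where 7.3%, 0.563% and 20.9% of all genes did. Only *Egfr* differed among its 5 WT RNA calls, beside the same 61.3%.

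Interferon-stimulated genes, of which none was called in WT RNA, rose in B at all 45 members tested (median 2.06), where 7.95% of all genes did, with medians of 0.35 in M and 0.71 in BM. For *Ifit1* the WT change differed from the mean of the others by -2.45 (adjusted p = 0.0158). *Nr1d1* rose in BM (2.10) as in WT and was not called in B (-0.16) or M (0.53), and the difference was not called (1.297, adjusted p = 0.251). RPFs of ribosomal protein genes rose in 71 of 79 in B, where 18.2% of all genes did. In BM 30 of 79 rose, where 22.7% of all genes did, and in M none was called (median 0.28). None of the 64 WT calls differed from the mean of the others, against 45.7% of all WT RPF calls. The fit over all mice of the series, on which that test rests, called no ribosomal protein gene in RPFs for the WT day change itself. A smaller difference could hardly be called there, so whether the ribosomal protein rise was shared cannot be read from this test. Of the WT RNA calls that fell, 59.3% were below 0 in M, 49.6% in B and 51.1% in BM, where 47.8%, 49.5% and 49.7% of all genes were. Of those that rose, 42.4% were above 0 in M, 36.4% in B and 36.4% in BM, against 52.2%, 50.5% and 50.3% of all genes, and 17 were called higher and 31 lower in B and 19 and 53 in BM, where 7.95% and 7.3% of all genes in B and 18.9% and 20.9% in BM were. Of the WT RPF calls that rose, 67.4% were above 0 in M, 70.3% in B and 59.6% in BM, where 52.2%, 51.1% and 50.4% of all genes were. Of the RPF calls that fell, 64.2%, 51.4% and 44.1% were below 0, where 47.8%, 48.9% and 49.6% of all genes were. Mouse 1 of BM at day 10 was also left out, after its values had been seen, and 2188 genes then differed in RNA and 3626 in RPFs.

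**Figure D5:**
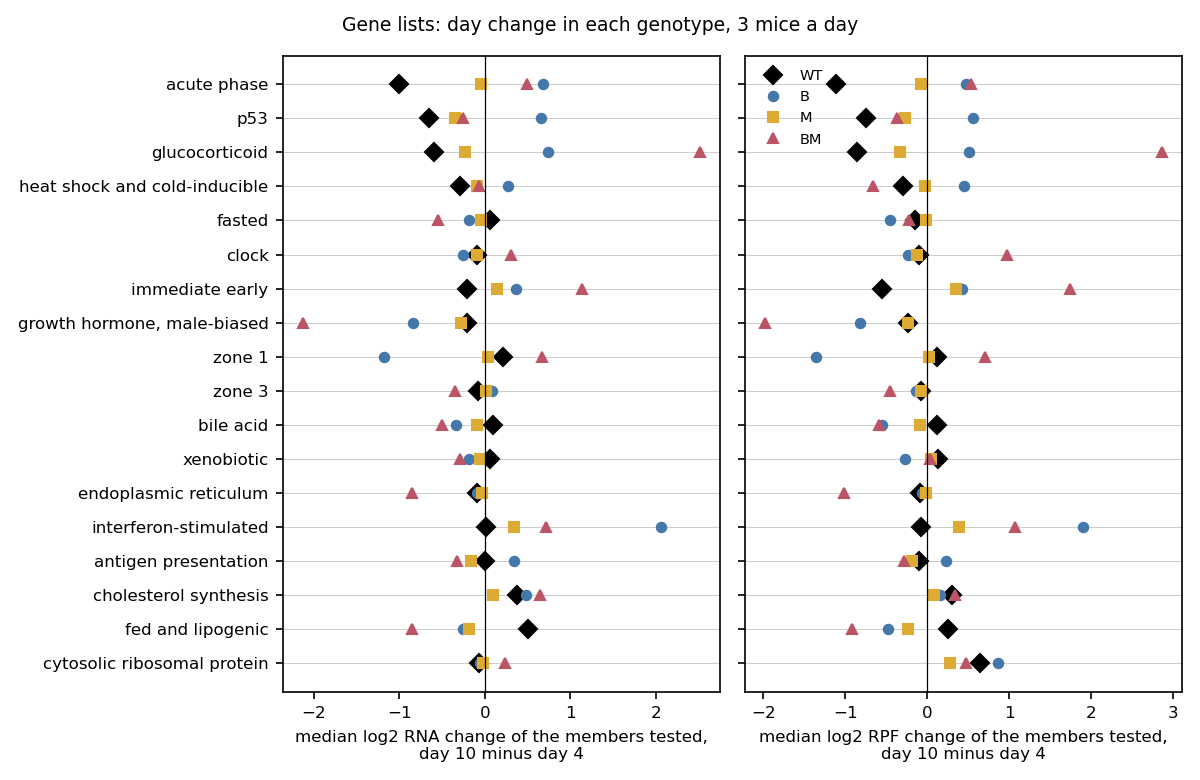
Median log2 change, day 10 minus day 4, of the members tested of 18 gene lists in RNA (left) and RPFs (right) in each genotype, 3 mice a day, each genotype in its own fit. WT lies lowest for the acute phase (-1 in RNA), p53 and glucocorticoid lists and highest for the fed and lipogenic list (0.51 in RNA), and it is near 0 for the interferon-stimulated list where B is at 2.06.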

How the data were processed

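Ribosome-protected fragments and paired cytoplasmic RNA of WT livers were analysed from the deposited tables. For RPFs the authors removed adapters (cutadapt 1.18 in the submitters' processing notes), rRNA and tRNA, aligned reads to GENCODE vM27 protein-coding transcripts, collapsed duplicates by molecular identifier and deposited counts per coding sequence, which were used on the most abundant transcript of each gene. For RNA the authors depleted rRNA, aligned with Bowtie2 2.3.5.1 and deposited RSEM 1.3.3 expected counts per isoform, which were summed per gene and rounded. The deposited TPM values entered no fit. The deposited FPKM and isoform percentages were not used. The totals per library given with the results limit the precision for genes with few counts.

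Counts were tested with edgeR 4.0.16 (quasi-likelihood, TMM, filterByExpr with a minimum count of 10, limma 3.58.1, R 4.3.3) over the 6 WT libraries of a type. TE was the interaction of day and library type over 12 libraries. SE is the log2 change over the square root of F. DESeq2 1.42.0, RLE factors, no expression filter, a replicate block, 1 fit over 24 mice and leaving out each mouse were alternatives. The mouse pairs its RNA and RPF libraries by design, and their deviations from the group means correlated at 0.213 to 0.549. Replicates are separate mice. Gene symbols and positions are from GENCODE vM39 (GRCm39), with 20614 of 20622 RNA genes matched. Named genes were up to 10 called genes per direction in RNA and RPFs (5 for TE) with the largest change, no overlap and a mean of at least 5 CPM, the called members of the lists, and the clock genes. Some list members count in the totals but are not reported here by name. The members and lists were chosen with earlier results of these data known. Scripts were tested on simulated data. *Mx1*, *Mx2* and *Cel* were not analysed here.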

Additional observations from a re-analysis of the deposited data

Results flagged for a closer look

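Genes named for their size of change were listed where the day effect of WT differed from the mean day effect of B, M and BM, by the interaction test over 24 mice in edgeR with Benjamini-Hochberg adjustment. This was so for 1426 genes in RNA and 1774 in RPFs. The values below are the log2 day effect of WT minus that mean, and each WT effect was chosen for its size.

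In RNA the difference was below 0 for acute phase genes, with -7.803 for *Saa1* (adjusted p = 2.19e-05), -8.736 for *Saa2* (5.37e-05), -8.414 for *Lcn2* (3.12e-05), -1.447 for *Saa4* (0.00548) and -1.998 for *Steap4* (0.0243). It was also below 0 for *Scara5* at -4.978 (3.12e-05), *Cdkn1a* at -2.214 (8.61e-05) and *Igfbp1* at -2.819 (0.0307). It was above 0 for *Sucnr1* at 2.514 (3.95e-06), *Fam13a* at 1.836 (3.1e-05), *Clec2h* at 3.282 (9.76e-05), *Abcd2* at 2.347 (0.00381), *Aacs* at 1.338 (0.0509) and *Onecut1* at 2.179 (0.0861). *Igfbp1* was not called without mouse 1 (0.115) or mouse 3 (0.104) of day 10, nor *Steap4* without mouse 1 of day 4 (0.145). The difference for *Onecut1* was lost without any single WT mouse (0.108 to 0.229), and that for *Aacs* without mouse 2 of day 4 (0.152) or mouse 1 of day 10 (0.211).

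In RPFs the difference was -7.04 for *Saa1* (adjusted p = 0.000169), -7.657 for *Saa2* (0.000265), -4.745 for *Saa3* (0.00147), -8.097 for *Lcn2* (0.000164), -6.152 for *Orm2* (0.000167), -7.946 for *Mt2* (0.000338), -4.936 for *Scara5* (0.00018) and -2.543 for *Cdkn1a* (0.000167). It was 1.792 for *Fam13a* (0.00138), 2.397 for *Abcd2* (0.0176), 1.361 for *Aacs* (0.0556) and 2.349 for *Rgs3* (0.0152). That of *Aacs* was lost without mouse 1 (0.121) or 2 (0.155) of day 4 or mouse 1 of day 10 (0.172).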

How the results depend on the processing

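Counts of calls depended on the design more than on the scaling. With no expression filter 279 genes rose and 232 fell in RNA and 2 fell in TE, and in 1 fit over all 24 mice 30 and 54 did so in RNA, 33 and 104 in RPFs and 0 and 0 in TE. DESeq2 called 114 and 137 in RNA (96 and 115 of the edgeR calls among them), 258 and 275 in RPFs and 79 and 2 in TE. With the mouse as a replicate block 136 genes rose and 28 fell in TE. Leaving out 1 mouse gave 60 to 245 genes that rose and 79 to 186 that fell in RNA, 102 to 345 and 104 to 353 in RPFs, and 0 to 53 and 0 to 3 in TE. These TE fits had no mouse block. The lowest counts came without mouse 1 of day 4 (60 and 79 in RNA, 102 and 104 in RPFs, 0 in TE). Genes whose WT day effect differed from the other genotypes numbered 617 in RNA and 1123 in RPFs without BM mice, 913 to 1358 and 1116 to 1604 without 1 WT mouse, and 2188 and 3626 without mouse 1 of BM at day 10, an alternative chosen after seeing the data. The cause was not tested.

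Replicate numbers did not pair the mice of the days, with correlations of same-numbered mice of 0.145, -0.0342 and 0.0275 in RNA and 0.012, -0.123 and -0.0874 in RPFs. The fit with the replicate number as a block called 89 genes higher and 110 lower in RNA and 174 and 178 in RPFs.

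Signs without 1 mouse were checked for the genes of largest change, the called list members and the clock genes. Among these they turned only for uncalled clock genes. The ranges over the fits without 1 mouse were -0.249 to 0.06155 for *Hlf* and -0.2295 to 0.4519 for *Wee1* in RNA. In RPFs they were -0.04487 to 0.107 for *Bmal1*, -0.3022 to 0.0757 for *Hlf* and -0.06059 to 0.1368 for *Rora*. Other uncalled genes given with the results, such as *Fkbp5* and *Ifit1*, were not checked in this way. With 3 mice a day and 4645204 to 5908324 RNA counts a library, low genes such as *Per1* and *Dbp* could not be tested in RNA.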
